A study of Mus musculus with 3143 samples.

Results

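The vascular endothelial growth factor (VEGF) ligands Vegfa, Vegfb and Vegfc, their receptor tyrosine kinases Flt1, Kdr and Flt4, and the co-receptors Nrp1 and Nrp2 were followed through single cells of mouse kidney glomeruli. The genes were taken by symbol from the count table, and all 8 were found among its 46517 gene names. The choice was by name and role, with no threshold on a measured value. On GRCm38, GENCODE vM21 places the ligands at chr17:46016993-46032369 (Vegfa), chr19:6982473-6987651 (Vegfb) and chr8:54077606-54187096 (Vegfc), the receptors at chr5:147561604-147726011 (Flt1), chr5:75932827-75978458 (Kdr) and chr11:49609263-49652739 (Flt4), and the co-receptors at chr8:128358604-128503363 (Nrp1) and chr1:62703285-62818695 (Nrp2).

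Cells of the dissociated glomerular fraction were sorted for a dye that marks viable cells, 1 per well, and sequenced with Smart-seq2, which copies polyadenylated RNA over its full length and carries no molecular identifiers. All cells came from the kidney of adult C57BL/6 mice, and the label for treatment divides them into IgAN, the group modelling IgA nephropathy (a glomerular disease with IgA deposits), and Control. The way IgAN was induced, and what Control mice received, is not given in the sources used here. The IgAN group held 1798 cells on 6 plates, the Control group 1345 cells on 4 plates, and no plate held both. Since no animal is named in the labels, each group counts as 1 sample: no test was possible, the spread between plates may be technical only, and plate and group cannot be told apart.

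In the adult glomerulus, podocytes secrete VEGF-A across the filtration barrier to the fenestrated capillary endothelium, whose upkeep depends on it. KDR (VEGF receptor 2) is the main signalling receptor for VEGF-A, while FLT1 (VEGF receptor 1) binds VEGF-A and VEGF-B tightly, signals weakly and, in a soluble form, acts as a decoy. VEGF-C binds FLT4 (VEGF receptor 3) and, after cleavage, KDR, and is best known for lymphatic growth. The neuropilins NRP1 and NRP2 bind VEGFs beside these receptors and also serve class 3 semaphorins.

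Cells were grouped by clustering without the 8 genes and named "X-like" from marker genes, so that no class rests on the VEGF genes themselves. The classes used most were podocyte-like (39 IgAN and 146 Control cells), endothelial-like (1026 and 614) and mesangial-like (115 and 51). Each cell had between 50365 and 1135415 reads assigned to genes, with a median of 234207. Levels are CPM, the counts of a gene scaled to 1e+06 reads, of the reads summed over the cells of a class. Reads of a gene also turned up at a low level in cells not known to make it: Kdr was found in 84.6% of 26 IgAN and 86.3% of 117 Control B or plasma cell-like cells, at 26.7 and 15.1 CPM, and Nrp1 stood there at 44.3 and 32.0 CPM. A share of cells with a read was therefore not read as expression for these genes. On IgAN plates 315 and 325, tubule-like cells carried endothelial markers, which is taken up beside the results it touches.

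Of the ligands, Vegfa was a podocyte gene in both groups, Vegfb was highest in tubule-like cells, and Vegfc was highest in mesangial-like cells in IgAN. In Control, Vegfc in mesangial-like and endothelial-like cells (22.4 and 18.7 CPM of summed reads) did not differ beyond the plates' spread, and by the mean over cells the order turned (14.2 and 23.5 CPM). All 3 receptor tyrosine kinases were highest in endothelial-like cells among the named classes of at least 10 cells, in both groups. Nrp1 was about equally high in endothelial-like and mesangial-like cells, and Nrp2 was highest in mesangial-like cells among the same named classes. A small unnamed cluster led by cell-cycle genes (16 IgAN and 8 Control cells) carried the endothelial receptors too, with Kdr at 1008 and 1219 CPM. Its Flt4 read 314 and 163 CPM, in IgAN above the 204 CPM of endothelial-like cells. Its Nrp2 read 50.6 and 101 CPM, in Control above the 91.6 CPM of mesangial-like cells. Between genes, levels were compared per kilobase (kb) of exon. In endothelial-like IgAN cells the CPM per kb was 198 for Nrp1, 160 for Kdr, 33.6 for Flt1, 24.8 for Flt4 and 5.89 for Nrp2. The same order held in Control, at 225, 162, 40.7, 25.0 and 5.04 CPM per kb. Podocyte-like cells had 94.9 (IgAN) and 68.6 (Control) CPM per kb of Vegfa and 32.9 and 33.0 of Nrp1. Gene counts do not separate the splice forms of Vegfa, or soluble from membrane-bound Flt1.

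**Figure D1:**
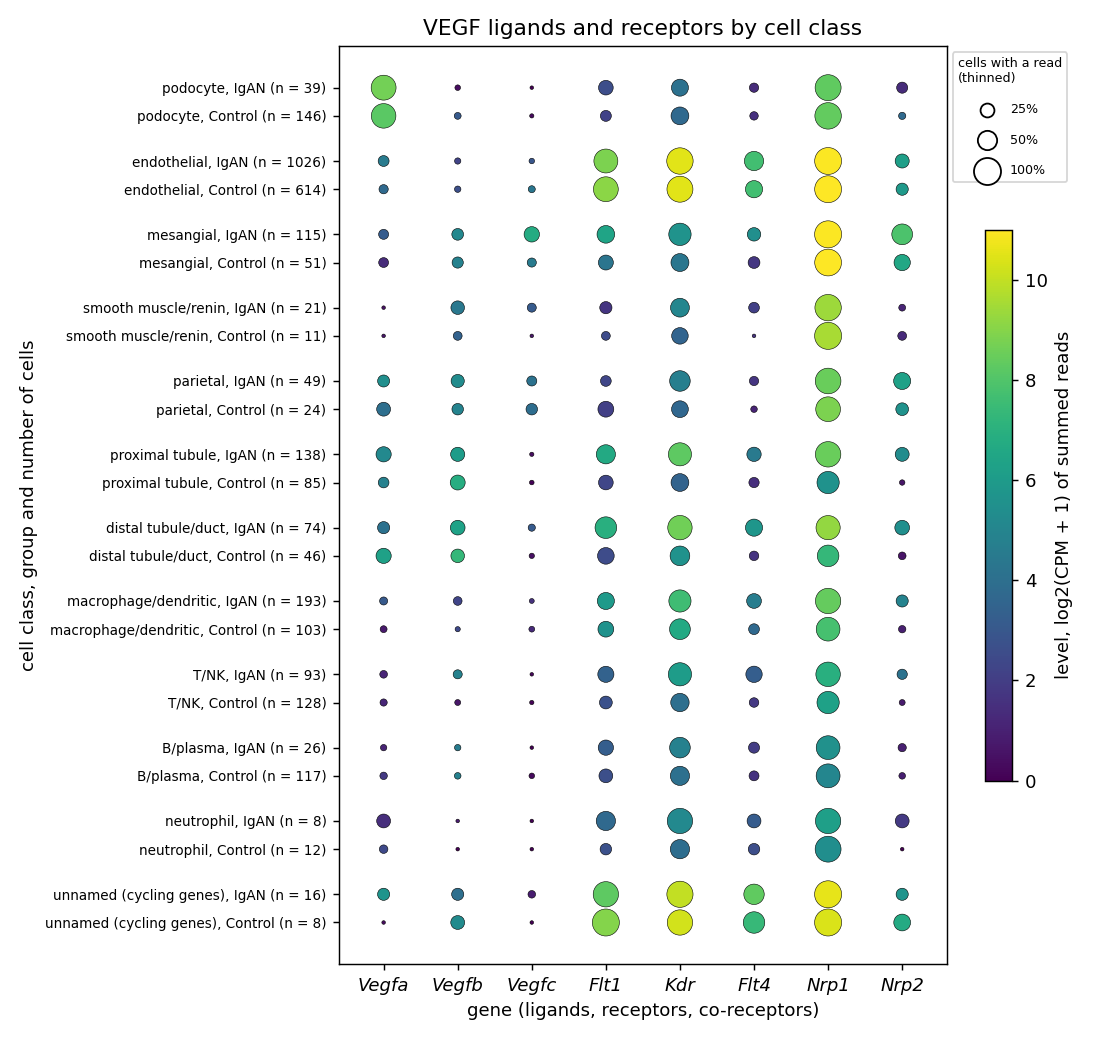
Levels of the 8 genes by cell class and group: colour gives log2(CPM + 1) of the summed reads, dot area the share of cells with a read after thinning each cell to 50000 reads, and n the number of cells. Vegfa stands out in the podocyte rows, Flt1, Kdr and Flt4 in the endothelial rows, and Nrp1 in both the endothelial and mesangial rows.

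The promoters of 4 of these genes are shown as the 250 bases before the RefSeq transcription start (GRCm38.p6), to be read side by side. They belong to a podocyte ligand (Vegfa), a ligand highest in mesangial-like cells in IgAN (Vegfc) and a pair of endothelial receptors (Kdr and Flt1). The GC-box letters GGGCGG, on either strand (CCGCCC), are in capitals. The windows are chr17:46032378-46032627 for Vegfa (the start farthest upstream of those listed), chr8:54077282-54077531 for Vegfc, chr5:75978456-75978705 for Kdr and chr5:147726012-147726261 for Flt1. Vegfc lies on the plus strand and the others on the minus strand, and each sequence runs 5′ to 3′ on the strand of its gene.
Vegfa: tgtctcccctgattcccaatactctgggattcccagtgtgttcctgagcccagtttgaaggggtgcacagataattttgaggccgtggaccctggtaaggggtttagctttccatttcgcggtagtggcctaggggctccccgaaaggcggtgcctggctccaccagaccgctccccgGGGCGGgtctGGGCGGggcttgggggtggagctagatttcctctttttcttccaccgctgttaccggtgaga
Vegfc: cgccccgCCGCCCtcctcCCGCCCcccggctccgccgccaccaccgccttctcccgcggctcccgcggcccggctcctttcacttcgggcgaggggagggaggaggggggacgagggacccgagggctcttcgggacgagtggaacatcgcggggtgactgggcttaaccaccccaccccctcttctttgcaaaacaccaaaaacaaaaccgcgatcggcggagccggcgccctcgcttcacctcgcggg
Kdr: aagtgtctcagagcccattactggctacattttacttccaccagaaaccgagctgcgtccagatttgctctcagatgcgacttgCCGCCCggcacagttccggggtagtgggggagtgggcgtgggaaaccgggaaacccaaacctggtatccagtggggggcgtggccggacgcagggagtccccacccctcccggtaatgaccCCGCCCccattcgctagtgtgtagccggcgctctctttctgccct
Flt1: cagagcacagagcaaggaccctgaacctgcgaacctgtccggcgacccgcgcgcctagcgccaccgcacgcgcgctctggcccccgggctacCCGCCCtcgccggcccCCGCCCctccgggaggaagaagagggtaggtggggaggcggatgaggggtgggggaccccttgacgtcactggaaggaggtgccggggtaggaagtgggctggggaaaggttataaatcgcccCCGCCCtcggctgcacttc
GGGCGG occurred 2 times each in the windows of Vegfa, Vegfc and Kdr and 3 times in that of Flt1, and 32.7% of all 32851 promoter windows of this length held it at least once. The letters AGGAAG, an ETS-type core, occurred 2 times before Flt1 and 0 times before Kdr, Vegfa and Vegfc. They were present in 29.5% of all windows. These matches describe letters in the window and are not evidence of binding.

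Vegfa in podocyte-like cells stood at 407 CPM in IgAN (95% Poisson interval 395 to 419) and 294 CPM in Control (289 to 299). These intervals, like the binomial ones, cover counting error only. It was found in 84.6% of the 39 IgAN and 88.4% of the 146 Control cells. The 4 Control plates read 266, 231, 369 and 331 CPM. Only 2 IgAN plates had at least 10 such cells, at 500 and 496 CPM, and both lay above all Control plates, as did 9.61% of the genes measured in this class. The 4 other IgAN plates, with 2 to 6 cells each, read 297, 278, 315 and 93.9 CPM and overlapped Control. The difference (IgAN minus Control) was 0.47 on the log2(CPM + 1) scale. Throughout, a gene passed the size rule if this difference was at least 1 either way with no overlap between the plates of at least 10 cells, and it counted as measured where 1 group reached 10 CPM with a read in 10% of its cells. In podocyte-like cells 0 of the 4 measured members passed, against 10.1% of the 9547 genes measured. Nrp1, the co-receptor podocyte-like cells carried, was level at 322 and 323 CPM. Podocyte markers summed to 25670 and 25850 CPM, and podocyte-like cells made up 2.17% of IgAN and 10.9% of Control cells. Flt1, Kdr and Flt4 in podocyte-like cells were at 1.58 to 16.1 CPM, in the range of the B or plasma cell-like cells.

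Endothelial-like cells carried far less Vegfa than podocytes, at 22.0 CPM in IgAN and 12.5 CPM in Control, but the plates of the groups did not overlap. The 6 IgAN plates ran from 17.6 through a median of 21.0 to 31.8 CPM, and the 4 Control plates read 8.89, 13.4, 9.55 and 15.5 CPM. The log2 difference was 0.77, below the size rule, which 0 of the 6 measured members passed in endothelial-like cells (background 1.51%). Without a limit on size, 1.46% of genes measured there were higher on every IgAN plate. More IgAN cells reached 50 CPM of Vegfa (9.94% of 1026 against 4.72% of 614). Podocyte markers in these cells summed to 551 CPM in IgAN (387 to 746 over plates) and 682 CPM in Control (632 to 800). Their part in the Vegfa difference was not tested. A cell counted as having markers of 2 classes if it held at least 3 podocyte, endothelial or mesangial markers at 50 CPM or more outside that class. Markers of other classes did not count. When cells with markers of 2 classes were left out, Vegfa read 22.2 and 10.2 CPM, a log2 difference just past 1 that met the rule, as did again 1.51% of measured genes.

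Vegfb, whose product binds FLT1 but not the other receptor tyrosine kinases, was read most in tubule-like cells. Distal tubule or collecting duct-like cells had 81.0 CPM in IgAN and 158 CPM in Control. The IgAN plates with at least 10 of these cells read 19.7 (plate 315), 297 (plate 318) and 6.49 CPM (plate 325). The Control plates read 318 and 96.9 CPM, so IgAN plate 318 lay between them and plates 315 and 325 below both. Plate 318, with 11 cells, thus held up the IgAN level. Proximal tubule-like cells had 64.1 and 116 CPM. The 3 Control plates with at least 10 proximal tubule-like cells read 118, 128 and 107 CPM. The 4 IgAN plates read 21.4, 49.9, 144 and 136 CPM and fell on both sides of Control. Parietal epithelial-like cells followed with 38.1 and 29.3 CPM and mesangial-like cells with 34.6 and 27.5 CPM. In endothelial-like cells Vegfb was at 3.66 and 5.16 CPM. Podocyte-like cells had 0.279 CPM in IgAN (3 reads) and 7.42 CPM in Control, where 94.8% of the reads came from the 5 highest cells.

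Vegfc in mesangial-like cells was the only member to pass the size rule in the podocyte-, endothelial- and mesangial-like classes. There it stood at 103 CPM in IgAN (interval 99.6 to 107) and 22.4 CPM in Control (20.0 to 25.2), a log2 difference of 2.16. The 6 IgAN plates ran from 54.6 through a median of 93.4 to 151 CPM. The 3 Control plates with at least 10 cells read 11.9, 32.9 and 27.0 CPM, and the plate with 4 cells read 1.21 CPM. All IgAN plates were above all Control plates. It was 1 of 7 measured members, where 2.75% of 10160 measured genes passed in either direction and 1.26% in this one. Vegfc was found in 41 of 115 IgAN cells (35.7%, exact binomial interval 26.9 to 45.1) and 8 of 51 Control cells (15.7%, 7.02 to 28.6). After thinning to equal depth the shares were 31.3% and 9.80%.

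The Vegfc reads of mesangial-like cells were concentrated in few cells. In Control the 5 highest cells gave 97.6% of the reads, and in IgAN 45.1%. On IgAN plate 322, all 401 reads came from 1 of 10 cells. Many mesangial-like cells, 83 of 115 and 29 of 51, also had at least 3 podocyte or endothelial markers at 50 CPM or more. Among the rest Vegfc read 88.8 CPM in 32 IgAN and 24.6 CPM in 22 Control cells. No Control plate then kept 10 cells, so the size rule could not be applied. Per plate these cells read 0 to 243 CPM in IgAN and 0 to 91.4 CPM in Control, so their plates overlapped. The lymphatic ligand Figf (VEGF-D), the partner of Vegfc as a ligand of FLT4, read 249 and 127 CPM in mesangial-like cells. Its plates did not overlap (149 to 318 CPM in IgAN, 64.6 to 141 in Control), but its log2 difference of 0.97 stayed under the size rule. The placental growth factor gene Pgf, a ligand of FLT1, read 1.47 CPM in IgAN and 70.9 CPM in Control mesangial-like cells. Pgf was found in 3.48% and 9.80% of cells and so was not counted as measured, just under the 10% limit in Control. Its plates did not overlap, at 0 to 8.46 CPM in IgAN and 30.9 to 108 CPM in Control.

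In endothelial-like cells Vegfc ran the other way, at 6.69 CPM in IgAN and 18.7 CPM in Control, a log2 difference of -1.36. It was found in 6.82% and 8.63% of cells, below the limit for a measured gene. The 4 Control plates read 14.1, 24.4, 9.75 and 20.3 CPM. The 6 IgAN plates ran from 0.0994 through 5.92 to 11.0 CPM and overlapped the lowest Control plate. Nearly all these reads came from the cluster led by Fbln5 described below, with 108 of the 1026 IgAN and 109 of the 614 Control cells. The log2 difference was -0.56 inside this cluster, with overlapping plates, and -0.93 outside it, at levels under 2 CPM. The part of the cluster's unequal share in the class difference was not tested. Podocyte-like cells had 0 Vegfc reads in IgAN, which allows up to 0.279 CPM at 3 reads, and 0.204 CPM in Control.

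**Figure D2:**
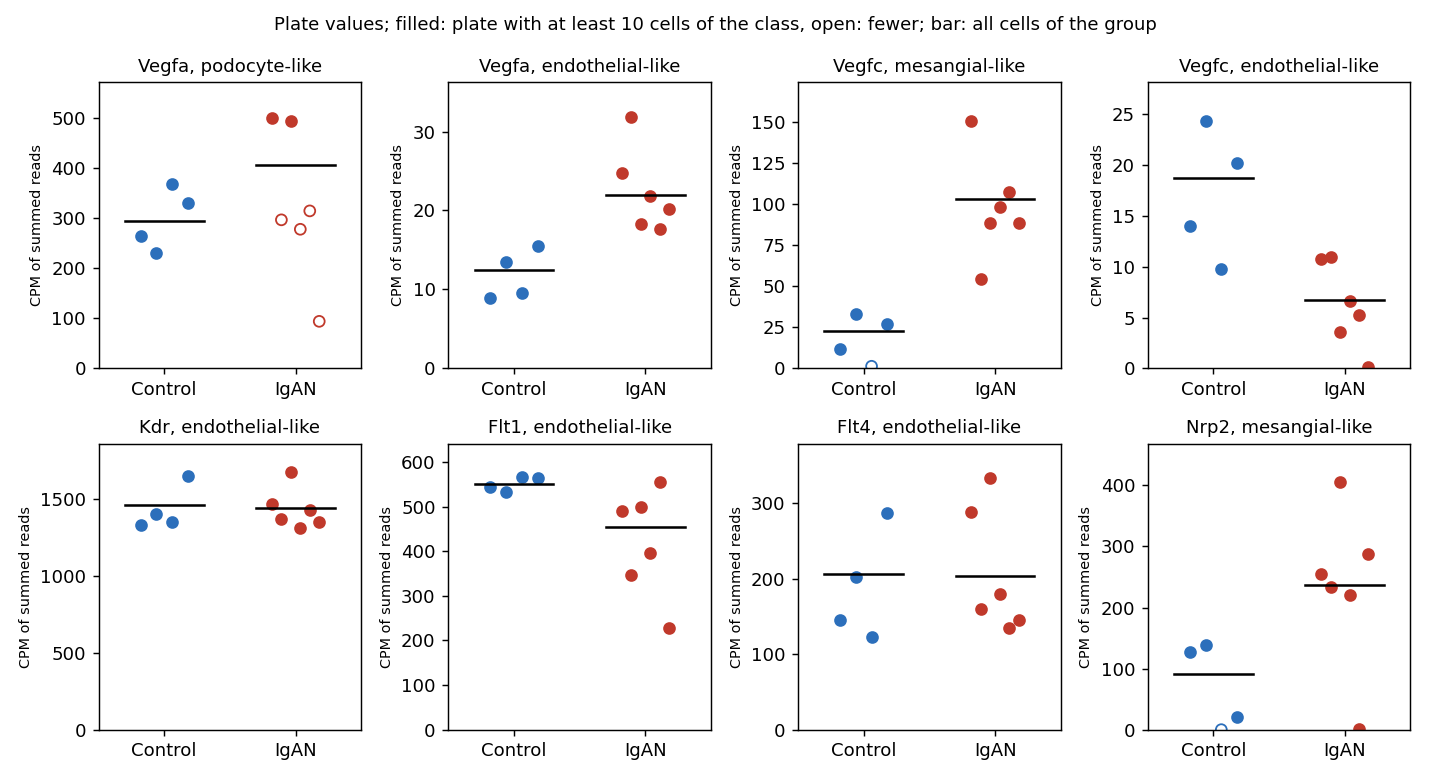
CPM on each plate for 8 pairs of gene and class: filled points are plates with at least 10 cells of the class, open points plates with fewer, and the bar is the level over all cells of the group. Vegfc in mesangial-like cells and Vegfa in endothelial-like cells are separated by group, whereas Kdr, Flt1 and Flt4 in endothelial-like cells overlap.

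The classes that supplied the reads of Vegfa and Vegfc differed between the groups. Here each cell's own CPM was summed over all cells. Podocyte-like cells held 73.6% of Vegfa in Control and 29.9% in IgAN, while endothelial-like cells held 14.1% and 48.6%. For Vegfc, endothelial-like cells held 91.2% in Control and 27.5% in IgAN, and mesangial-like cells 4.6% and 64.1%. Tubule-like cells held most of Vegfb in both groups, with 39.6% in proximal and 24.5% in distal tubule-like Control cells and 31.4% and 20.6% in IgAN. These shares follow the number of cells sorted from each class as well as the level per cell. They describe the sorted cells, not the tissue.

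**Figure D3:**
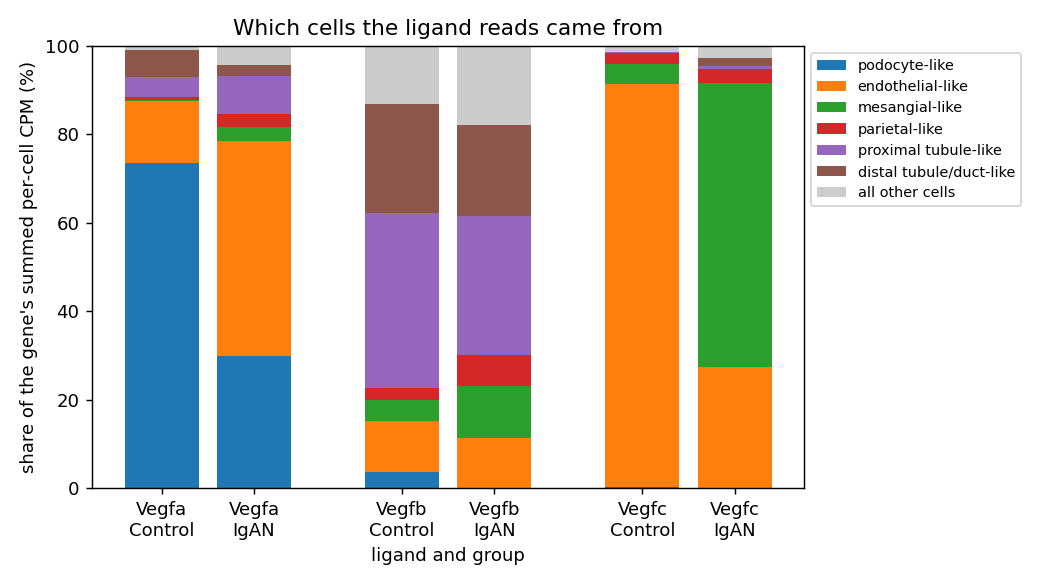
Share of each ligand's summed per-cell CPM that came from each class, in percent, for Control and IgAN cells. Vegfa comes mostly from podocyte-like cells in Control (73.6%) and less so in IgAN (29.9%), and Vegfc mostly from endothelial-like cells in Control (91.2%) and from mesangial-like cells in IgAN (64.1%).

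The receptors of endothelial-like cells were close between the groups. Kdr stood at 1440 CPM in IgAN and 1461 CPM in Control, a log2 difference of -0.02. Its IgAN plates ran from 1313 through 1404 to 1674 CPM, and the Control plates read 1334, 1405, 1353 and 1653 CPM, so the plates interleaved. Kdr was found in 99.4% and 99.0% of cells and reached 50 CPM in 87.3% and 85.5%.

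Flt1 stood at 454 CPM in IgAN and 550 CPM in Control, a log2 difference of -0.28. The Control plates were tight at 544, 533, 566 and 565 CPM. The IgAN plates ranged from 227 through 442 to 554 CPM: plate 322 lay inside the Control range, the other 5 below it, and plate 325 lowest. Cells with at least 50 CPM of Flt1 made up 64.5% in IgAN and 74.8% in Control. Plates 315 and 325, whose tubule-like cells carried endothelial markers, were 2 of the low plates. Without these plates, picked after seeing the data, Flt1 read 495 CPM in IgAN (log2 difference -0.15). Plates 313, 316 and 318, at 489, 499 and 395 CPM, still lay below Control. When cells with markers of 2 classes were left out, Flt1 read 447 and 537 CPM (log2 difference -0.27). The part of carried RNA in the Flt1 difference was not tested.

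Flt4, the receptor of VEGF-C, stood at 204 and 206 CPM, a log2 difference of -0.01. The IgAN plates ran from 135 through 169 to 334 CPM and the Control plates read 145, 203, 123 and 286 CPM. The summed level was the same within this spread while the share of cells with a read was 71.8% in IgAN and 56.8% in Control, and 50.3% and 39.6% after thinning. At 50 CPM or more the shares were 36.3% and 32.3%. Lymphatic endothelial markers (Prox1, Lyve1, Mmrn1 and Ccl21a) summed to only 2.87 and 4.94 CPM in these cells, with 2 of the 4 at 0, so Flt4 was read in cells without a lymphatic marker profile.

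Nrp1 was the most abundant member per kb in endothelial-like cells, at 1936 CPM in IgAN and 2202 CPM in Control (log2 difference -0.19). The IgAN plates ran from 1250 (plate 325) through 1874 to 2371 CPM, around the Control values of 2233, 2186, 2087 and 2233 CPM. Mesangial-like cells carried as much, at 1945 and 2145 CPM, with IgAN plates from 1533 through 1939 to 2303 CPM and Control plates at 2450, 1665 and 2250 CPM. Smooth muscle or renin cell-like cells had 674 and 765 CPM (21 and 11 cells) and parietal epithelial-like cells 362 and 450 CPM. In IgAN, distal tubule or collecting duct-like cells lay between them at 599 CPM, against 160 CPM in Control. The log2 differences between groups in endothelial-, mesangial-, smooth muscle or renin- and parietal epithelial-like cells ran from -0.31 to -0.14.

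Nrp2, the neuropilin that pairs with FLT4, was highest in mesangial-like cells among the named classes, at 237 CPM in IgAN and 91.6 CPM in Control. The log2 difference of 1.36 was past the fold, but the plates overlapped. The IgAN plates read 254, 234, 405, 220, 1.34 and 287 CPM, and the Control plates with at least 10 cells 127, 138 and 20.1 CPM. The single IgAN plate below Control was plate 322, with 10 cells. Without it Nrp2 (log2 difference 1.58) passed the rule, as did 3.88% of measured genes. Since this was the only plate in the way, that pass was fixed by leaving it out and adds no support. Among IgAN mesangial-like cells, 22 of 115 had at least 50 CPM of both Vegfc and Nrp2, 10 of Vegfc alone and 37 of Nrp2 alone. Among the 51 Control cells, 0 had both, 3 had Vegfc alone and 13 Nrp2 alone. In T or NK cell-like cells Nrp2 read 16.8 and 0.737 CPM, but this rested on few plates: plate 315, with 13 cells, read 101 CPM, plates 313 and 325 read 15.1 and 18.2 CPM, and the other 3 read 0.998 to 1.4 CPM beside 0.243 to 1.05 CPM in Control. In macrophage or dendritic-like cells it read 29.6 and 0.930 CPM, with the highest values again on plates 315 and 325 (64.1 and 53.0 CPM) and overlap with Control at the lowest. Endothelial marker sums were high on plates 315 and 325 in both classes, at 1259 to 3439 CPM, but macrophage or dendritic-like cells of plate 318 held 2697 CPM of them with 1.70 CPM of Nrp2. Without cells with markers of 2 classes, Nrp2 read 30.4 and 0.608 CPM in T or NK cell-like cells (42 IgAN and 96 Control). In macrophage or dendritic-like cells (98 and 80) it then read 10.45 and 0.779 CPM. The part of the endothelial marker reads was not tested. In endothelial-like cells Nrp2 read 69.8 and 59.7 CPM, with IgAN plates from 36.7 to 138 CPM and Control plates from 33.6 to 88.8 CPM.

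Endothelial-like cells fell into 7 clusters, and these divided the groups: cluster 0 held 420 Control and 32 IgAN cells, whereas clusters 1, 2, 3 and 5 held 237, 217, 225 and 201 IgAN cells with 33, 35, 2 and 9 Control cells. Only cluster 4 was balanced among the large ones, with 108 IgAN and 109 Control cells. Its leading genes were Fbln5 and Fbln2 (fibulins of the elastic fibre) and Igfbp3. The values between groups above therefore set mostly cluster 0 of Control against clusters 1, 2, 3 and 5 of IgAN. Over the 4 group-divided IgAN clusters and cluster 0, Kdr read between 1436 and 1757 CPM, Nrp1 between 1654 and 2436 CPM and Flt1 between 359 (cluster 3) and 531 CPM (cluster 5).

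The cluster led by Fbln5 had its own balance of receptors. Kdr read 379 CPM there, and was lower than in the other endothelial-like cells of the same plate on 10 of 10 plates, with a median log2 difference of -1.91. Nrp1 (median -1.03) and Flt4 (median -0.79) were also lower on 10 of 10 plates. Flt1 was not: it read 525 CPM, was higher on 6 plates and lower on 4, with a median of 0.10. Per kb this left 42.0 CPM of Kdr, against 184 in cluster 0, beside 38.9 and 39.1 CPM of Flt1. Nearly all endothelial Vegfc also came from this cluster. Vegfc read 65.4 CPM in its IgAN and 97.1 CPM in its Control cells, against 0.547 and 1.95 CPM in the remaining endothelial-like cells, and was higher on 9 of 10 plates. The exception was IgAN plate 325, where the 8 cells of the cluster had 0 reads of Vegfc and also little Flt1 (1.44 CPM). Since clustering used the other genes of the same cells, these differences are descriptions without a test.

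Between the groups inside this cluster, 0 of 6 measured members passed the size rule (background 4.79%). Flt1 (453 and 586 CPM, log2 difference -0.37) and Nrp1 (914 and 1328 CPM, -0.54) were lower on each of the 4 IgAN plates with at least 10 of its cells than on the 3 Control plates, which 4.54% of genes measured there also were. Kdr read 365 and 391 CPM and Vegfc differed by -0.56, both with overlapping plates. Outside the cluster Vegfc differed by -0.93 at levels under 2 CPM.

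**Figure D4:**
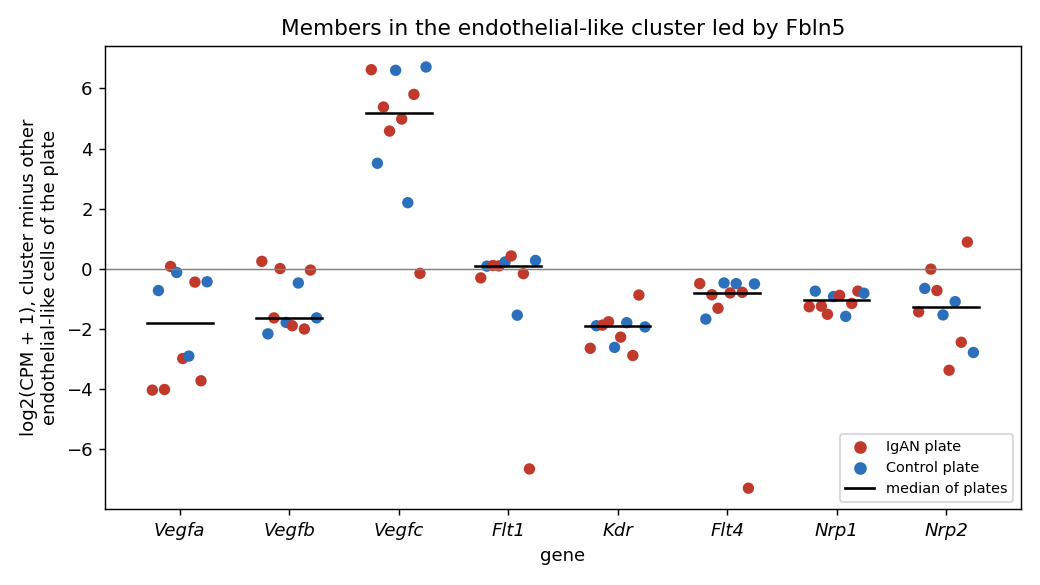
Difference in log2(CPM + 1) between the endothelial-like cluster led by Fbln5 and the other endothelial-like cells of the same plate, for each of 10 plates (red IgAN, blue Control), with the median as a bar. Kdr, Flt4 and Nrp1 lie below 0 on every plate, Flt1 lies around 0 apart from plates 321 and 325 with 8 cells each, and Vegfc lies above 0 on 9 plates.

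Most endothelial-like cells carried several receptors at once. Kdr and Nrp1 were both at 50 CPM or more in 84.3% of IgAN and 83.7% of Control cells, Kdr and Flt1 in 58.2% and 65.0%, and Kdr and Flt4 in 34.8% and 30.3%. Flt4 without Kdr was rare, at 1.46% and 1.95%. Flt4 and Nrp2 together were seen in 8.09% and 5.70%. Kdr together with the ligand Vegfa was seen in 8.97% and 4.07%. In podocyte-like cells Vegfa and Nrp1 were both at 50 CPM or more in 25 of 39 IgAN and 82 of 146 Control cells.

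In tubule-like cells, receptor reads were highest on the plates with the most endothelial marker reads. In proximal tubule-like cells Kdr read 438 CPM on IgAN plate 315 and 386 CPM on plate 325, against 13.0 and 45.3 CPM on the other IgAN plates with at least 10 such cells and 6.42 to 14.2 CPM on Control plates. The 7 endothelial markers summed to 3846 and 6200 CPM on those 2 plates, to 154 and 633 CPM on the other 2 and to 123 to 235 CPM in Control. In this class Nrp2 (38.7 and 0.533 CPM) was the 1 of 7 measured members to pass the size rule, with a background of 8.75% in either direction and 6.57% in this one. Its IgAN plates read 1.93 to 92.7 CPM and its Control plates 0.222 to 1.28 CPM. When cells with markers of 2 classes were left out, 51 IgAN and 66 Control cells remained, and Kdr read 11.9 and 7.97 CPM, Flt1 3.45 and 2.96 CPM and Nrp2 0.882 and 0.242 CPM. Distal tubule or collecting duct-like cells had Kdr at 526 and 889 CPM on plates 315 and 325 and at 31.3 CPM on plate 318. In mesangial-like cells plate 325 stood highest, at 288 CPM of Flt1 and 304 CPM of Flt4. There the endothelial markers summed to 3747 CPM and the podocyte markers to 3424 CPM. Without cells of 2 classes, mesangial-like Kdr read 11.4 and 9.93 CPM and Flt4 3.90 and 1.74 CPM. Flt1 still differed there, at 39.7 CPM in 32 IgAN and 4.70 CPM in 22 Control cells. Of the other classes compared, 0 of 5 measured members passed in macrophage or dendritic-like cells (background 1.19%) and 0 of 4 in T or NK cell-like cells (background 1.72%). Kdr was also highest where the endothelial markers were highest in mesangial-like cells (177 CPM, plate 325) and T or NK cell-like cells. The latter read 192 and 278 CPM on plates 315 and 325 (markers 1259 and 3439 CPM). Macrophage or dendritic-like cells read 259, 307, 288 and 285 CPM of Kdr on plates 314, 315, 318 and 325, whose markers were highest (1730 to 2697 CPM). Podocyte-like cells and mesangial-like Nrp1 did not follow that order. The former held 1333 to 2059 CPM of the endothelial markers with 5.81 to 22.2 CPM of Kdr. Such a sum does not tell which of the 7 markers gave the reads, nor whether podocyte-like cells made them. Mesangial-like Nrp1 was lowest (1533 CPM) on plate 325, where the markers were highest. Whether the tubule-like cells made these receptors or carried RNA of other cells was not tested.

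**Figure D5:**
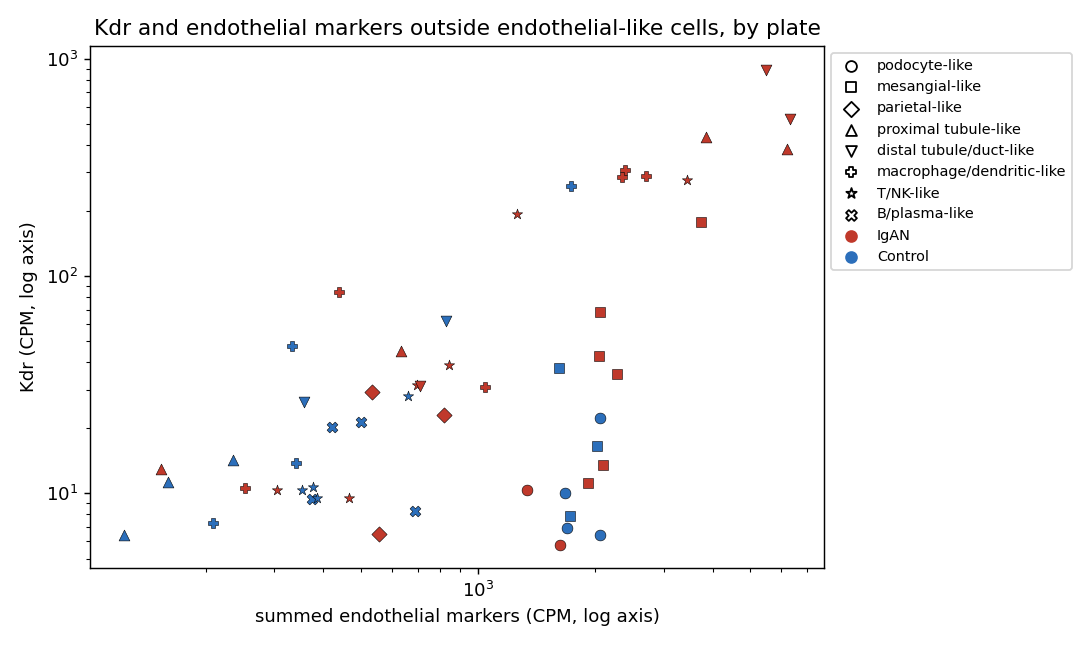
Kdr against the summed endothelial markers (both CPM, log axes) on each plate with at least 10 cells, for every class other than endothelial-like. Tubule-like cells of IgAN plates 315 and 325 lie at the upper right, at 386 to 889 CPM of Kdr, and podocyte-like plates lie at 5.81 to 22.2 CPM of Kdr with marker sums of 1333 to 2059 CPM. The sum does not tell which marker gave the reads.

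Around the members, a list of 111 pathway genes (110 in the table) covered the other ligands, oxygen sensing, ligand binding, receptor partners, class 3 semaphorins, receptor signalling, response genes and endothelial transcription factors. In endothelial-like cells 85 were measured, of which 0 were higher and 1 lower in IgAN by the size rule. Of all genes measured there, 0.774% were higher and 0.733% lower. With so few genes passing, a count of 0 in the shorter lists below is not a result about them. The median log2 difference of the 85 was -0.03 beside 0.01 over all genes. The 1 lower gene was Sema3b, a semaphorin that competes for neuropilins, at 1.49 CPM in IgAN and 15.9 CPM in Control. The response genes in endothelial-like cells gave 0 of 13, with Nr4a1 at 810 and 825 CPM and Egr1 at 1860 and 1223 CPM. Among the transcription factors 0 of 10 passed, with Klf2 at 1354 and 1355 CPM and Sox18 at 855 and 791 CPM. Receptor partners gave 0 of 11, with the phosphatase Ptprb at 863 and 818 CPM and the VEGF receptor-binding lectin Clec14a at 727 and 619 CPM. Of the 9 genes for ligand processing and extracellular binding, 7 were measured and 0 passed. The most abundant were Sparc at 3667 and 3787 CPM and Timp3, an inhibitor of VEGF binding to KDR, at 2109 and 2674 CPM. The angiogenesis inhibitor Thbs1 had the widest difference of the 7, at 4.36 and 22.4 CPM, with overlapping plates.

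In mesangial-like cells 1 of 82 measured pathway genes was higher in IgAN and 1 lower, beside 1.26% and 1.49% of all measured genes, with a median of 0.06 beside 0.02 over all genes. The focal adhesion gene Pxn read 47.1 and 14.0 CPM. Its IgAN plates read 6.8 to 118 CPM and its Control plates of at least 10 cells 3.7 to 5.23 CPM. Its Control level thus rested mostly on plate 321, with 4 cells, which the rule leaves out. The calcineurin-controlled factor Nfatc1 read 67.3 and 143 CPM. In podocyte-like cells 4 of 69 were higher and 4 lower, with a median of 0.14 beside -0.06. The higher ones were Efnb2 (39.6 and 14.4 CPM), Plxna4 (22.3 and 0.182 CPM), Mapkapk2 (120 and 47.1 CPM) and Nr4a1 (2121 and 852 CPM), an immediate early gene. Plxna4 passed narrowly: its 2 IgAN plates of at least 10 cells read 0.553 and 90.1 CPM, and Control plates reached 0.545 CPM. Of these IgAN plates, 1 thus held nearly all of it. Efnb2 was also close, at 22.9 CPM on the lower IgAN plate and 21.4 CPM on the highest Control plate. The lower ones were Egr1 (115 and 755 CPM), Klf2 (28.9 and 78.1 CPM), Braf (7.73 and 25.4 CPM) and Ppargc1a (0.652 and 11.4 CPM), a coactivator that can drive Vegfa. Ppargc1a passed narrowly and near the floor: its 2 IgAN plates read 0 CPM and its Control plates 0.0998 to 27.4 CPM. It had a read in 12.3% of Control cells, just past the 10% limit. Beside the 8 of 69 that passed, 10.1% of all genes measured in that class did. The oxygen-sensing factor Epas1 (HIF-2 alpha) read 36.0 and 57.9 CPM in podocyte-like cells and Zfp36l1, which destabilises Vegfa mRNA, 999 and 968 CPM. Neither passed the rule.

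The genes whose levels most resembled a member's were ranked by Pearson correlation of log2(CPM + 1) over 21 class-by-group profiles, which share plates and depth. For Vegfa they were Aif1l (0.918), Zfp462 (0.914) and Prr15 (0.906). For Vegfc they were Nuak1 (0.936), Mical2 (0.899) and Gm26719 (0.891). For Kdr they were Cd300lg (0.979), Slc26a10 (0.976) and Adgrl4 (0.976), and for Flt1 Zfp366 (0.975), Unc45b (0.972) and Lrrc3b (0.962).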

How the data were processed

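Single cells were sequenced with Smart-seq2 in 1 plate-based series. The authors deposited raw read counts per gene and cell, and per the submitters' processing notes reads were handled with TopHat2 2.1.1, SAMtools 0.1.18 and featureCounts of Subread 1.4.6-p5 on GRCm38 (mm10). Information on annotation, strand setting, duplicate handling and cell filter is not given in the sources used here, and without molecular identifiers amplified copies count as reads. All 3143 cells, each of at least 50365 reads, were used. From these counts, CPM was computed per cell and over summed cells, and exon lengths came from GENCODE vM21. Cells were clustered with scanpy 1.11.5 and leidenalg 0.10.2 (2000 variable genes, 30 components, 15 neighbours, resolution 1) without the 8 members, giving 23 clusters named from at least 3 detected markers. No doublet caller was run. As an alternative, cells with at least 3 podocyte, endothelial or mesangial markers at 50 CPM or more outside that class were left out. Markers of the other classes were not screened in this way. With 1 sample per group no test was run: differences are on log2(CPM + 1), compared over plates of at least 10 cells where each group had at least 3 such plates, or 2 in podocyte-like cells and when a plate was left out. The 95% intervals are exact Poisson or Clopper-Pearson. Named besides the members were pathway genes passing the size rule, or among the 2 most abundant of their role in endothelial-like cells, and the 3 genes most alike in level. Members and lists were chosen with earlier results of these data known. Recovery by this rule was tried on simulated plates, with Poisson counts and the median plate spread of each class for every gene. Genes with a wider spread, or with reads in few cells like mesangial-like Vegfc, were not represented, so it does not show recovery for them. Alternatives covered scaling, summing, pseudocount, filters, fold limit, depth, clustering, gates and leaving out each plate.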

Additional observations from a re-analysis of the deposited data

How the results depend on the processing

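Kdr and Flt1 in endothelial-like cells and Vegfa in podocyte-like cells stayed within 1 plate SD of their values under every alternative run. Vegfc in mesangial-like cells did too, except that the mean of per-cell CPM gave a log2 difference of 3.20. Counts of members past the size rule moved in 5 cases. In endothelial-like cells Vegfa made it 1 with a 1.5-fold limit (background 2.74%), and 1 without cells of 2 classes (background 1.51%). In podocyte-like cells marker gates made it 1 (Kdr, background 5.48%). In mesangial-like cells Nrp2 made it 2 with cells of at least 100000 reads (background 3.46%) and 2 with marker gates (3.99%). The main backgrounds were 1.51% in endothelial-like, 10.1% in podocyte-like and 2.75% in mesangial-like cells. In each case the cause was not tested. Leaving out 1 plate at a time gave 1 to 2 members in mesangial-like cells, 0 in endothelial-like and 0 in podocyte-like cells. In mesangial-like cells Flt1 joined without plate 317 (background 6.94%), Nrp2 without plate 322 (3.88%) and Flt4 without plate 326 (6.37%). Without 317 or 326 only 2 Control plates had to lie apart, which is easier to meet. Over these runs the log2 differences were 1.88 to 2.51 for Vegfc, 0.29 to 0.54 for Vegfa and -0.41 to -0.22 for Flt1. For Kdr they were -0.06 to 0.07, near 0 on either side. Without plate 313 or 316, podocyte-like cells kept 1 IgAN plate, and no count was made. Without cells of 2 classes no Control plate kept 10 mesangial-like cells, so that count was not run either. Plates of at least 2 cells, plates 315 and 325 left out, and the cluster led by Fbln5 left out were chosen after seeing the data and changed no call. No paired analysis was possible because the labels number no replicates. Depth limits Vegfc in podocyte-like cells, where 3 reads are 0.279 CPM in IgAN.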
